A study of Homo sapiens with 10 samples.

Results

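The alpha-like and beta-like globin genes were followed in MEG-01, a cell line established from a human megakaryoblastic leukemia, after transfection with a microRNA-1225-3p precursor. The members were fixed by gene name as HBA1, HBA2, HBZ, HBM, HBQ1, HBB, HBD, HBE1, HBG1 and HBG2. Every array probe other than a control whose RefSeq accession carries one of these 10 symbols was taken, which gave 12 probes for 8 of the genes among 42405 probes in all. HBA1 and HBG2 matched no probe by accession and were not analysed here under their own names. HBA1 and HBA2 transcripts are nearly identical, as are HBG1 and HBG2 transcripts, so the HBA2 and HBG1 probes may also take signal from the paralog.

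The miR-1225-3p group was MEG-01 cells nucleofected with 200 nM of the miR-1225-3p precursor, and the scrambled group was MEG-01 cells nucleofected with 200 nM of a negative control precursor of random sequence. Both groups therefore went through nucleofection with a precursor, were collected after 24 hours and were described as 5 independent experiments performed at the same time, with 1 array each. One label describes the scrambled samples as untreated, but titles and methods both give them the control precursor, which was followed here. The model is a single leukemia line, and the arrays measured the whole culture, so transfected and untransfected cells were read together, and fewer cells of a type cannot be told apart from less RNA per cell.

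Haemoglobin is a tetramer of alpha-like and beta-like chains that carries a haem in each chain. The alpha-like genes lie together on chromosome 16 and the beta-like genes on chromosome 11, and each cluster contains genes used in the embryo, the fetus or the adult. HBZ and HBE1 encode the embryonic zeta and epsilon chains, HBG1 and HBG2 the fetal gamma chains, HBA1 and HBA2 the alpha chains of fetal and adult haemoglobin, HBB the adult beta chain and HBD the delta chain of the minor adult haemoglobin. HBM and HBQ1 are alpha-like genes, named mu and theta, whose chains have no established part in haemoglobin. Globin RNA is the mark of red cell precursors, and lines with both megakaryocytic and erythroid features can also express it.

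The sequence that distinguished the groups is shown first. The mature microRNA is given from RefSeq, 5′ to 3′, with its seed (bases 2 to 8) in capitals, and on GRCh38.p14 it lies at chr16:2090195-2090216 on the minus strand.

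hsa-miR-1225-3p: uGAGCCCCugugccgcccccag

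Of the globin genes, HBM and HBD had a promoter window in the RefSeq table used here (GRCh38.p14, 250 bases before to 50 bases after the annotated start). Both windows are shown because HBM was the globin gene that was called higher and HBD is a beta-like gene to set beside it. The HBM window is chr16:165728-166027 on the plus strand and the HBD window is chr11:5234434-5234733 on the minus strand, each written 5′ to 3′ along the gene. Capitals mark every match, on either strand, to AGATAA or TGATAA (letters bound by GATA factors), CACCC (letters bound by KLF factors), CCAAT, and TATAAA or CATAAA.

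HBM: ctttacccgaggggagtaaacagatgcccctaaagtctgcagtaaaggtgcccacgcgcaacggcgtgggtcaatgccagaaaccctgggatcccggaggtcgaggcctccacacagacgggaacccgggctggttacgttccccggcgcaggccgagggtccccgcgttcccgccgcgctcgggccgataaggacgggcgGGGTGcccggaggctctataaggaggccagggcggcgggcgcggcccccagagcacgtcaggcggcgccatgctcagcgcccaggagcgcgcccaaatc
HBD: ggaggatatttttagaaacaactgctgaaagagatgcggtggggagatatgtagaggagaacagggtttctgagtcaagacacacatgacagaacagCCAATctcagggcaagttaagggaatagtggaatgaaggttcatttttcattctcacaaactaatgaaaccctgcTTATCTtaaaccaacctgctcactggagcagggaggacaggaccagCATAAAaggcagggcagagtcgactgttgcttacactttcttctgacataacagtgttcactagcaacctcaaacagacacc

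The HBM window held 1 match, to CACCC on the opposite strand, beginning at -49 from the start. The HBD window held 3, to CCAAT at -153, to AGATAA on the opposite strand at -78 and to CATAAA at -32. Over the 35116 promoter windows of the table, 59.9% held CACCC, 34.6% held CCAAT, 19.6% held TATAAA or CATAAA and 16.3% held AGATAA or TGATAA. The motifs do not overlap each other in these windows.

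The values below are normalized log2 signals, that is, the log2 of the background-corrected Cy3 intensity of a probe after cyclic loess normalization across the 10 arrays, and a difference of 1 is a 2-fold change. Between 42.0% and 61.2% of the spots other than controls were well above background on each array, and no spot was saturated. The arrays lay on 2 slides, each with both groups (miR-1225-3p replicates 1 and 2 with scrambled replicates 1, 3 and 5 on slide 1). On the first principal component, with 69.8% of the variance, miR-1225-3p replicates 1 to 4 scored between -146.9 and -57.2 and the scrambled arrays between 57.1 and 82.9, whereas replicate 5 of the miR-1225-3p group, at 63.8, fell within the scrambled range. This library goes against its label on that axis, so the globin results, the list counts and the named genes whose call it decides are given with and without it.

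All 12 globin probes were well above background on all 10 arrays, so none entered the comparison through 1 group alone. The embryonic gene HBE1 was lower and the mu gene HBM was higher after miR-1225-3p transfection, while none of the other 10 probes, which cover HBZ, HBA2, HBQ1, HBG1, HBD and HBB, passed the test. By limma, 2 of 12 globin probes had an adjusted p under 0.05 over the 20648 probes tested, 1 in each direction. Over all probes tested 35.0% were called, 16.3% higher and 18.7% lower, so the globin probes were called less often than probes of the arrays as a whole, a difference that was not tested. HBA2, HBG1 and HBZ have more than 1 probe each, so the probes are not separate members. By gene, 2 of 8 globins were called (25.0%), beside 34.8% of all genes. Without miR-1225-3p replicate 5 the same 2 probes were called, beside 55.8% of all probes. The median log2 fold change of the 12 probes was -0.14, beside -0.09 over all probes tested.

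**Figure D1:**
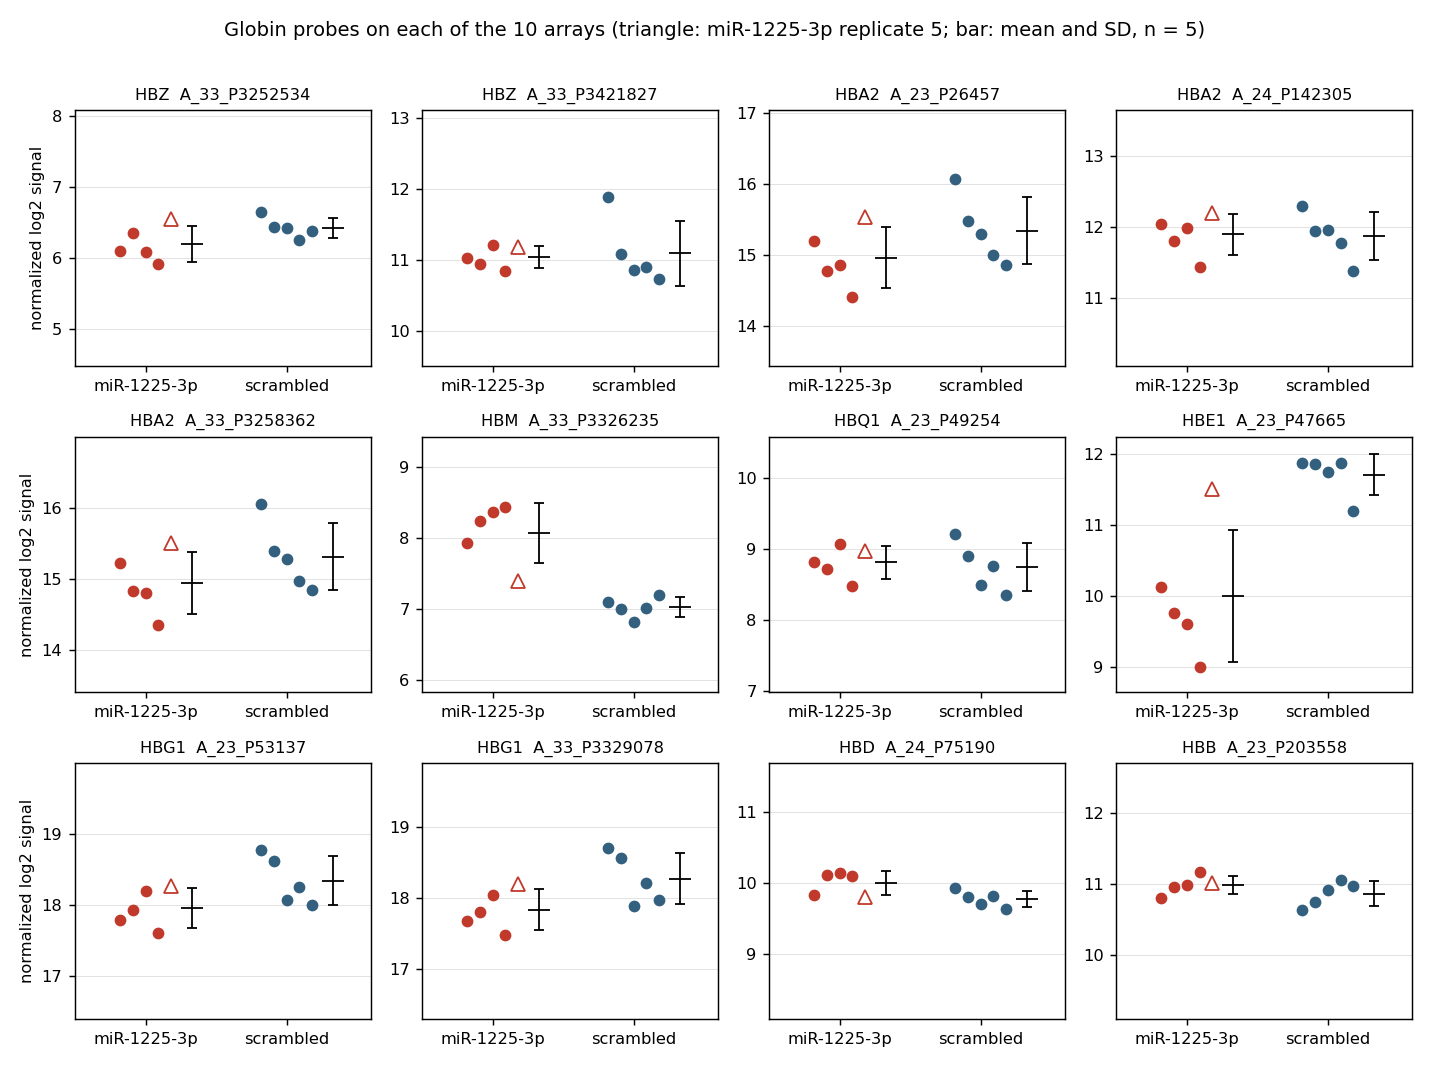
Normalized log2 signal (y axis, the same span of 3.6 in each panel) of the 12 globin probes on the 5 miR-1225-3p arrays (red, replicates in order, replicate 5 as an open triangle) and the 5 scrambled arrays (blue), with the mean and SD of each group in black. For HBE1 the red circles sit between 9.01 and 10.14 and the triangle at 11.51 sits among the scrambled arrays, and for HBM every red symbol lies above every blue one.

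HBE1, the embryonic beta-like chain, had the largest fold change of the globin probes. Its probe, A_23_P47665, is printed at 2 spots per array, which differed by a median SD of 0.037 on the log2 scale. On the miR-1225-3p arrays its normalized log2 signal was 10.14, 9.76, 9.61, 9.01 and 11.51 in replicates 1 to 5, and on the scrambled arrays 11.88, 11.87, 11.75, 11.88 and 11.20. Replicates 1 to 4 of the miR-1225-3p group lay below all scrambled arrays, whereas replicate 5 lay above scrambled replicate 5, so the groups overlap at that array. Before normalization the processed signals were 1572, 873, 494, 613 and 3445 on the miR-1225-3p arrays and 2027, 3124, 5409, 4244 and 3272 on the scrambled arrays. There too replicates 1 to 4 lay below all scrambled arrays, while replicate 5 lay above scrambled replicates 1, 2 and 5.

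The means were 10.01 ± 0.93 (SD, n = 5) and 11.72 ± 0.29 (SD, n = 5). The log2 fold change of HBE1 was -1.71 (SE 0.40, 95% interval -2.60 to -0.83), a 3.28-fold lower signal with an adjusted p of 0.017 by limma. The two-sided exact permutation p over the 10 arrays was 0.0159, where 0.00794 is the smallest that 5 against 5 arrays allow. With replicate 5 of the miR-1225-3p group left out it was -2.09 (limma adjusted p = 0.000159), and the groups no longer overlapped. Within slide 1 it was -1.66 (limma adjusted p = 0.0176) and within slide 2, which contains replicate 5, -1.83 (limma adjusted p = 0.501). Within slide 2 limma called 0 of all probes tested, so the miss there is not particular to HBE1. With the slide as a block in the fit the HBE1 value was -1.75.

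HBM, the mu gene of the alpha-like cluster, was the other globin gene called. Its single probe, A_33_P3326235, is printed at 1 spot per array. Its normalized log2 signal was 7.93, 8.24, 8.37, 8.43 and 7.40 on miR-1225-3p replicates 1 to 5, and 7.10, 7.00, 6.82, 7.01 and 7.19 on the scrambled arrays. Every miR-1225-3p array was above every scrambled array, and replicate 5 was again the nearest to the scrambled group. Of the 12 globin probes this was the one whose groups did not overlap, beside 12.6% of all probes tested.

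The means were 8.08 ± 0.42 (SD, n = 5) and 7.02 ± 0.14 (SD, n = 5). The log2 fold change of HBM was 1.05 (SE 0.20, 95% interval 0.60 to 1.50), a 2.07-fold higher signal with an adjusted p of 0.015 by limma, and the two-sided exact permutation p was 0.00794. Without replicate 5 it was 1.22. It was 1.05 within slide 1 (limma adjusted p = 0.0246), 1.06 within slide 2 (limma adjusted p = 0.501, with 0 of all probes called) and 1.06 with the slide as a block. The separation of the HBM groups came with the normalization. The processed signals before it were 319, 259, 179.5, 313 and 228 on the miR-1225-3p arrays and 82.9, 116, 199.6, 167 and 236 on the scrambled arrays, which overlap, and their log2 fold change of 0.76 had an adjusted p of 0.217 by limma.

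**Figure D2:**
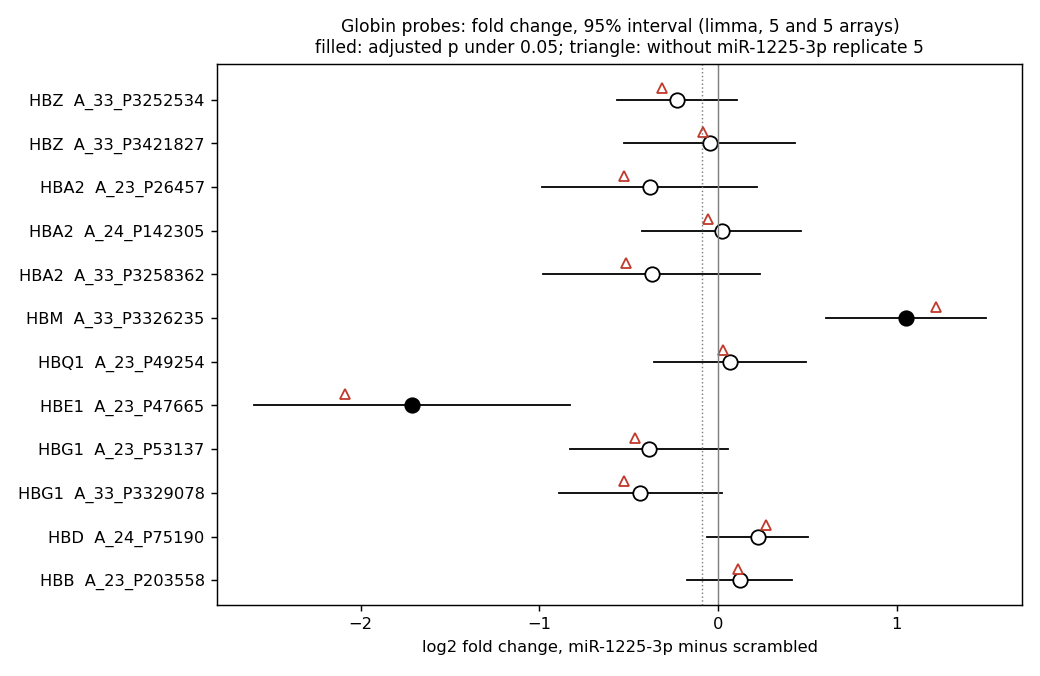
Log2 fold change (x axis, miR-1225-3p minus scrambled) of each globin probe with its 95% interval from limma over 5 and 5 arrays. Filled circles have an adjusted p under 0.05, triangles are the values without miR-1225-3p replicate 5, the solid line is 0 and the dotted line is the median of all probes tested (-0.09). The intervals of HBE1 (-2.60 to -0.83) and HBM (0.60 to 1.50) are the ones that leave out 0.

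The fetal gamma chain was read by a pair of HBG1 probes, among the strongest signals of the globin probes on their own scale, at 33.4% to 47.6% of the scanner's saturation value. The probe A_23_P53137, printed at 10 spots, had a normalized log2 signal of 17.79, 17.94, 18.20, 17.61 and 18.28 on the miR-1225-3p arrays and 18.79, 18.62, 18.07, 18.26 and 18.01 on the scrambled arrays. Scrambled replicates 1 and 2 were the highest of all, while the other 3 scrambled arrays lay in the range of the miR-1225-3p arrays. Its log2 fold change was -0.39 (95% interval -0.83 to 0.06, limma adjusted p = 0.142), and that of A_33_P3329078 was -0.43 (95% interval -0.89 to 0.02, limma adjusted p = 0.116), values that turned to 0.40 and 0.35 when each array was scaled by its 75th percentile. Without normalization between arrays they were -0.02 and -0.07. The normalization widened the range of A_23_P53137 over the 10 arrays from 0.44 to 1.17 on the log2 scale. Leaving out replicate 5 gave -0.47 and -0.52, neither past the threshold.

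The adult beta-like genes HBB and HBD were close between the groups. HBB, whose loss or change underlies beta thalassaemia and sickle cell disease, had on its probe A_23_P203558 (10 spots) a normalized log2 signal of 10.80, 10.96, 10.98, 11.17 and 11.01 on the miR-1225-3p arrays and 10.63, 10.75, 10.91, 11.06 and 10.97 on the scrambled arrays. The groups overlapped over most of their range, with a log2 fold change of 0.12 (95% interval -0.17 to 0.41, limma adjusted p = 0.475). HBD, on A_24_P75190, had 9.83, 10.11, 10.14, 10.10 and 9.80 on the miR-1225-3p arrays and 9.93, 9.80, 9.70, 9.81 and 9.63 on the scrambled arrays. Replicates 2, 3 and 4 of the miR-1225-3p group were above all scrambled arrays and replicates 1 and 5 were among them. The HBD log2 fold change was 0.22 (95% interval -0.06 to 0.50), with an adjusted p of 0.183 by limma and a two-sided exact permutation p of 0.0476 that is not adjusted for the 12 probes tested in this way. The upper ends of these intervals allow a rise of up to 1.33-fold for HBB and 1.42-fold for HBD.

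Of the alpha-like genes other than HBM, none passed the test. HBZ, the embryonic zeta chain, had on its brighter probe, A_33_P3421827, a normalized log2 signal of 11.03, 10.95, 11.22, 10.85 and 11.19 on the miR-1225-3p arrays and 11.89, 11.09, 10.86, 10.91 and 10.74 on the scrambled arrays. Scrambled replicate 1 was the highest and the other arrays lay between 10.74 and 11.22. The log2 fold change was -0.05 (95% interval -0.53 to 0.43, limma adjusted p = 0.870), a sign that turned under several of the settings tried. The dimmer HBZ probe, A_33_P3252534, had -0.23 (limma adjusted p = 0.241). HBZ and HBE1, both embryonic, therefore had different results in the same test, though the difference between them was not itself tested.

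HBA2, an alpha chain gene, was read by 3 probes, of which A_23_P26457 had a normalized log2 signal of 15.21, 14.78, 14.87, 14.41 and 15.54 on the miR-1225-3p arrays and 16.07, 15.48, 15.31, 15.00 and 14.86 on the scrambled arrays. The groups overlapped, with replicate 5 again above the other miR-1225-3p arrays. Its log2 fold change was -0.38 (95% interval -0.98 to 0.22, limma adjusted p = 0.275) and that of A_33_P3258362 was -0.37, both of which turned to 0.30 with scaling by the 75th percentile, while A_24_P142305 had 0.02 (limma adjusted p = 0.937). The probes of this gene thus did not give a single value. HBQ1, the theta gene, had on A_23_P49254 a normalized log2 signal of 8.82, 8.72, 9.08, 8.47 and 8.97 on the miR-1225-3p arrays and 9.21, 8.91, 8.49, 8.76 and 8.35 on the scrambled arrays, with a log2 fold change of 0.07 (95% interval -0.36 to 0.49, limma adjusted p = 0.787). Its groups covered nearly the same range, and the sign turned to -0.08 without normalization between arrays.

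The scaling of the arrays moved the whole distribution, and with it the smaller globin values. The median log2 fold change over all probes tested was -0.09 with cyclic loess, 0.05 with quantile normalization, 0.11 when each array was scaled by its 75th percentile and -0.31 without normalization. Over all probes, 3357 were called higher and 3867 lower with cyclic loess, 4184 and 3080 with quantile normalization, 5105 and 3283 with the 75th percentile and 174 and 1050 without normalization. Under the 75th percentile, 5 globin probes were called, HBB (0.58), HBD (0.61) and the HBA2 probe A_24_P142305 (0.54) being called higher beside HBM (1.18), with HBE1 at -1.25. Relative to the median of all probes, HBE1 was at -1.62 with cyclic loess and -1.36 with the 75th percentile, and HBM at 1.14 and 1.07. HBB and HBD were positive under all 4 scalings and HBE1 and HBM kept their signs, whereas the signs of HBG1, HBQ1, the brighter HBZ probe and 2 HBA2 probes depended on the scaling.

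**Figure D3:**
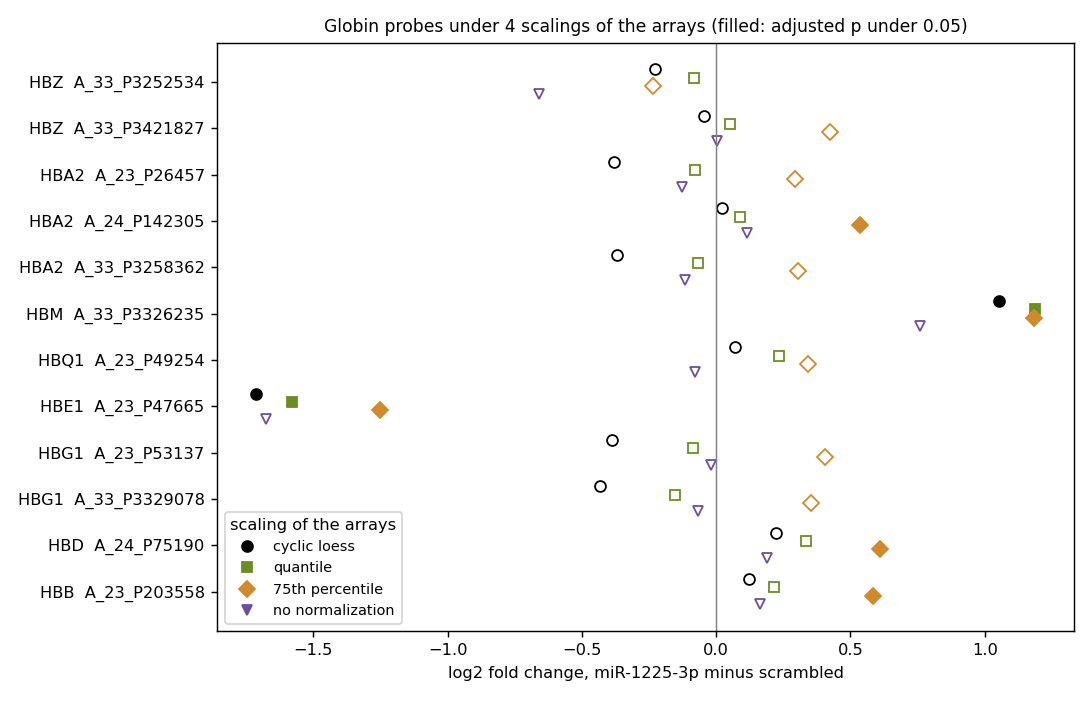
Log2 fold change (x axis, miR-1225-3p minus scrambled) of each globin probe under cyclic loess (black circles, the values of the text), quantile normalization (green squares), scaling by the 75th percentile (orange diamonds) and no normalization between arrays (purple triangles). Filled symbols have a limma adjusted p under 0.05. HBE1 stays below -1.2 and HBM above 0.7 under all 4, while the orange diamonds of HBG1 and of 2 HBA2 probes lie on the other side of 0 from the black circles.

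The log2 ratio of a pair of probes on the same array, taken before normalization, cancels a shift common to all probes of that array. A shift that depends on brightness does not cancel. The ratio of HBM to HBE1 was -2.30, -1.75, -1.46, -0.97 and -3.92 on the miR-1225-3p arrays and -4.61, -4.75, -4.76, -4.67 and -3.79 on the scrambled arrays. The ratio was higher on miR-1225-3p replicates 1 to 4 than on any scrambled array, and replicate 5 lay just below scrambled replicate 5. The group means of this ratio differed by 2.43. For HBE1 over HBD the means differed by -1.86, for HBE1 over HBB by -1.84 and for HBE1 over HBG1 by -1.66, and for HBM over HBQ1 they differed by 0.84 and for HBM over HBA2 by 0.89. The ratios that hold neither called gene moved less, with 0.13 for HBZ over HBA2 and 0.02 for HBD over HBB. After cyclic loess the differences, in the order given, were 2.76, -1.93, -1.83, -1.32, 0.98, 1.43, 0.33 and 0.10. These 8 ratios were chosen after the values were seen and are given with no test.

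After cyclic loess HBE1 and HBM varied in opposite directions within the groups. With each group centred on its own mean, their normalized log2 values had a Pearson r of -0.94 over the 10 arrays, the lowest among the 61 pairs of probes of different globin genes. HBG1 and HBQ1 had the highest, 0.94, and the median over these pairs was 0.47. Probes of the same gene gave between 0.53 (the HBZ pair) and 0.996 (HBA2 A_23_P26457 and A_33_P3258362). Without normalization between arrays the r of HBE1 and HBM was 0.34, and all 61 pairs were positive (0.31 to 0.98, median 0.74), so the opposite variation was seen only with the normalized values. These values share arrays, brightness and normalization, and replicate 5 weighs on the pair of HBE1 and HBM, so they are descriptions only.

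By the same measure, the genes with the most similar pattern to each globin were listed over 13781 probes that were well above background on all 10 arrays. KDELR1 had an r of 0.99 with HBE1, DAPK3 had 0.99 with HBM, CALCOCO1 had 0.99 with HBA2 and FAM120C had 0.99 with HBZ. UPF1 had 0.96 with HBB, and ELP6 had 0.97 and MAFG 0.95 with HBD. RPL35A, at rank 2 behind a long intergenic RNA probe, had 0.995 with HBG1. CCL24, at rank 3 behind such probes, had 0.98 with HBQ1. Among so many probes high values over 10 arrays are common.

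Both called globins were followed through every setting tried. HBE1 ranged from -2.09 to -1.25 and HBM from 0.76 to 1.24 over 26 alternatives, and each passed the threshold in 23 of them. The exceptions were the same for both genes, namely no normalization between arrays, the replicate block and the arrays of slide 2 alone. Of all probes tested limma called 1224 in the first of these settings and 0 in each of the others. When single arrays were left out, the adjusted p by limma stayed between 0.000159 and 0.0474 for HBE1 and between 0.000151 and 0.0436 for HBM.

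**Figure D4:**
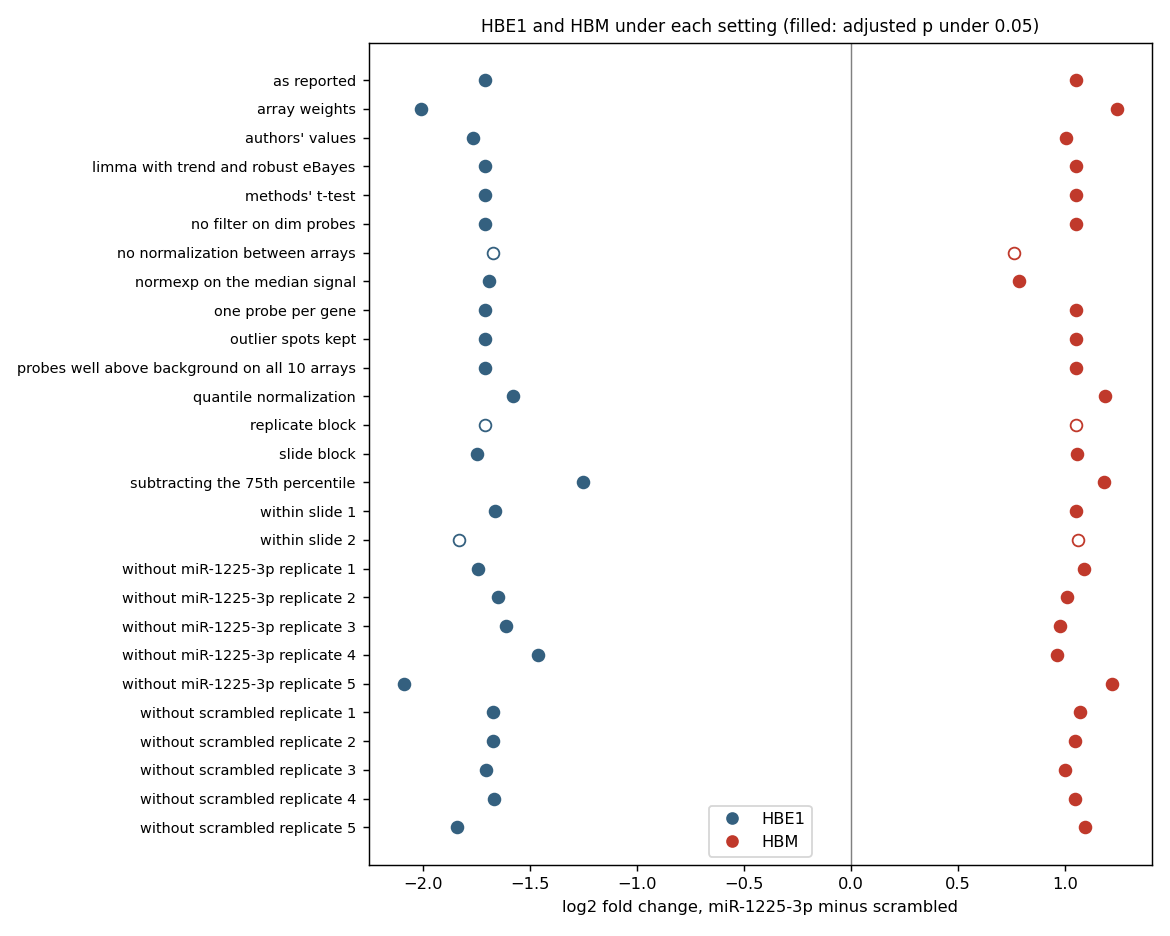
Log2 fold change (x axis, miR-1225-3p minus scrambled) of HBE1 (blue) and HBM (red) under each setting named on the y axis, filled where the adjusted p was under 0.05. HBE1 lies between -2.09 and -1.25 and HBM between 0.76 and 1.24, with 3 open circles for each gene.

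Factors known to act on the globin genes were compared next. Of 32 listed regulators 30 were tested, and 2 rose and 10 fell by limma (12 of 30, 40.0%), beside 34.8% of all genes tested (16.8% higher, 18.0% lower), with a list median of -0.20 beside -0.06. Under the 75th percentile 5 of them were higher and 8 lower, beside 4503 and 2580 of all genes. Without replicate 5, 5 were higher and 11 lower, beside 55.3% of all genes called (26.3% higher, 29.0% lower). CHD4, the remodeler of the NuRD complex that helps to silence the gamma genes, fell by 1.54 (limma adjusted p = 0.0302), and BACH1, a haem-sensitive repressor that binds globin enhancers, fell by 1.14 (limma adjusted p = 0.0146). GATA2 fell by 1.00 and EHMT2, a histone H3K9 methyltransferase, fell by 0.96 on the log2 scale. NFE2, an activator bound at the locus control region of the beta-like cluster, was lower by limma at -0.43 (adjusted p = 0.0268), but was at 0.13 when arrays were scaled by the 75th percentile. CHD4 stayed past the threshold in 14 of 26 alternatives and NFE2 in 13, each in 3 of the 10 that leave out 1 array (limma adjusted p up to 0.0693 and 0.0671), while BACH1, GATA2 and EHMT2 stayed past it in 23.

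GATA1, the principal erythroid activator, had a normalized log2 signal of 9.88, 8.92, 8.47, 7.88 and 10.02 on the miR-1225-3p arrays and 10.11, 9.80, 10.13, 9.92 and 10.39 on the scrambled arrays. The groups overlapped through replicates 1 and 5, and the log2 fold change was -1.04 (limma adjusted p = 0.0573), or -1.28 (limma adjusted p = 0.0118) without replicate 5. KLF1, the activator of adult beta globin, was at -0.20, TAL1 at -0.21, and MYB, a factor that keeps gamma expression low, at 0.25, none past the threshold, and the first 2 were positive under the 75th percentile. BCL11A, the main repressor of the gamma genes, gave 0.11 on its brightest probe, not past the threshold, and -1.81 (limma adjusted p = 0.0144) on its other probe, A_24_P411186. ZBTB7A, another gamma repressor, was well above background on 3 of the scrambled arrays and not on any miR-1225-3p array. It entered the test through the scrambled group alone, so its call (limma adjusted p = 0.0144) is not read as support for a fall. Its scrambled mean was 1.75-fold above a detection floor of the miR-1225-3p arrays. Over 25 alternatives its log2 fold change ranged from -1.43 to -0.16. SOX6 was not well above background on any array.

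Haem is needed for haemoglobin, and 21 of 23 genes of its synthesis, its degradation and partners of haemoglobin were tested. Of these 4 rose and 3 fell (33.3% called), with a list median of 0.16 beside -0.06 for all genes, and under the 75th percentile 11 were higher and 3 lower, and without replicate 5, 7 and 3. ALAD, among those that fell, was well above background on 1 miR-1225-3p array and 5 scrambled arrays. It entered the test through the scrambled group alone, so its call is not read as support for a fall. FECH, which inserts the iron, rose by 0.81 and ABCB10, a mitochondrial transporter of erythroid cells, by 0.65, whereas EIF2AK1, the haem-regulated kinase that limits globin translation, fell by 0.87 and ALAS1, the housekeeping first enzyme of the pathway, fell by 0.79. On miR-1225-3p replicate 5 FECH was 7.64, within the scrambled range of 7.35 to 7.83. The erythroid first enzyme ALAS2 was at 0.32 (limma adjusted p = 0.151) and AHSP, the chaperone of free alpha chains, at 0.67 (limma adjusted p = 0.0670), or 0.78 (limma adjusted p = 0.0300) without replicate 5. AHSP was well above background on 4 miR-1225-3p arrays and 2 scrambled arrays, so it entered the test through the miR-1225-3p group alone. Its scrambled signals were dim, so these p-values are not read as support for a rise, and without normalization its value was 0.13. ABCB10 stayed past the threshold in 11 of 26 alternatives, and of the 10 that leave out 1 array only without replicate 5, with a limma adjusted p of up to 0.0875 in the others. FECH was lost without miR-1225-3p replicate 2 or 3 (limma adjusted p up to 0.0544).

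Markers of the cells that could hold globin RNA were measured on the same arrays. Of 23 erythroid markers 21 were tested, 7 rose and 0 fell by limma (33.3% called), beside 34.8% of all genes (16.8% higher, 18.0% lower). At an unadjusted p under 0.05 there were 8 higher and 4 lower, beside 4019 and 4484 of all genes. The methods' t-test with adjustment called 5 higher and 0 lower, beside 2637 and 2013. The 75th percentile gave 10 higher and 0 lower, beside 4503 and 2580. GYPB, a blood group glycoprotein, was 1.05 on its brightest probe and -1.18 on its other probe, A_33_P3362915, each with a limma adjusted p under the threshold. SPTB (0.90), EPB42 (0.67) and GYPE (0.64), of the red cell membrane and its skeleton, rose. Over 26 alternatives GYPE stayed past the threshold in 9, GYPB in 12, EPB42 in 13 and SPTB in 19, and with single arrays left out GYPE did so only without replicate 5 (limma adjusted p up to 0.102 otherwise). EPOR, the erythropoietin receptor, was at -0.17, not past the threshold. Without replicate 5, 14 of the 21 were called, 8 higher and 6 lower, beside 55.3% of all genes, so the one-sided count did not hold.

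Of 17 megakaryocyte markers 9 were tested, 0 rose and 2 fell by limma (22.2% called, beside 34.8% of all genes), with a list median of -0.74 beside -0.06. At an unadjusted p under 0.05 there were 1 higher and 6 lower, the methods' t-test with adjustment called 0 and 1, and without replicate 5 limma called 1 higher and 5 lower. Over all genes these counts were 4019 and 4484, 2637 and 2013, and 4571 and 5036. GP1BA, among those called lower without replicate 5, was well above background on 1 miR-1225-3p array and 3 scrambled arrays. It entered the test through the scrambled group alone, so its call is not read as support for a fall. ITGA2B, the platelet integrin alpha IIb, fell by 1.39 (limma adjusted p = 0.0439) and THBS1 by 0.92, and GP9 was at -1.20 (limma adjusted p = 0.0600), or -1.62 (limma adjusted p = 0.00146) without replicate 5. Other markers were positive and not past the threshold, namely GP6 (0.43), PPBP (0.17) and RAB27B (0.14). GP6 was the marker called higher without replicate 5, at 0.59 (limma adjusted p = 0.00290). ITGA2B stayed past the threshold in 9 of 26 alternatives, and of the 10 that leave out 1 array only without replicate 5, at -1.85, with a limma adjusted p of up to 0.0994 in the others. THBS1 was lost without miR-1225-3p replicate 2 (limma adjusted p = 0.0502). PF4, VWF, SELP, TUBB1 and TREML1 were not well above background on enough arrays to be tested, which limits how far the label of the line could be checked. Of 13 markers of other blood cells 9 were tested, with 2 higher and 2 lower (2 and 0 under the 75th percentile, 3 and 4 without replicate 5), among them MPO (0.80), CD68 (-0.94) and NKG7 (-0.73). CD3E, called higher beside MPO, was well above background on 3 miR-1225-3p arrays and 1 scrambled array. It entered the test through the miR-1225-3p group alone, so its call is not read as support for a rise. The part of these markers in the globin values was not tested.

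**Figure D5:**
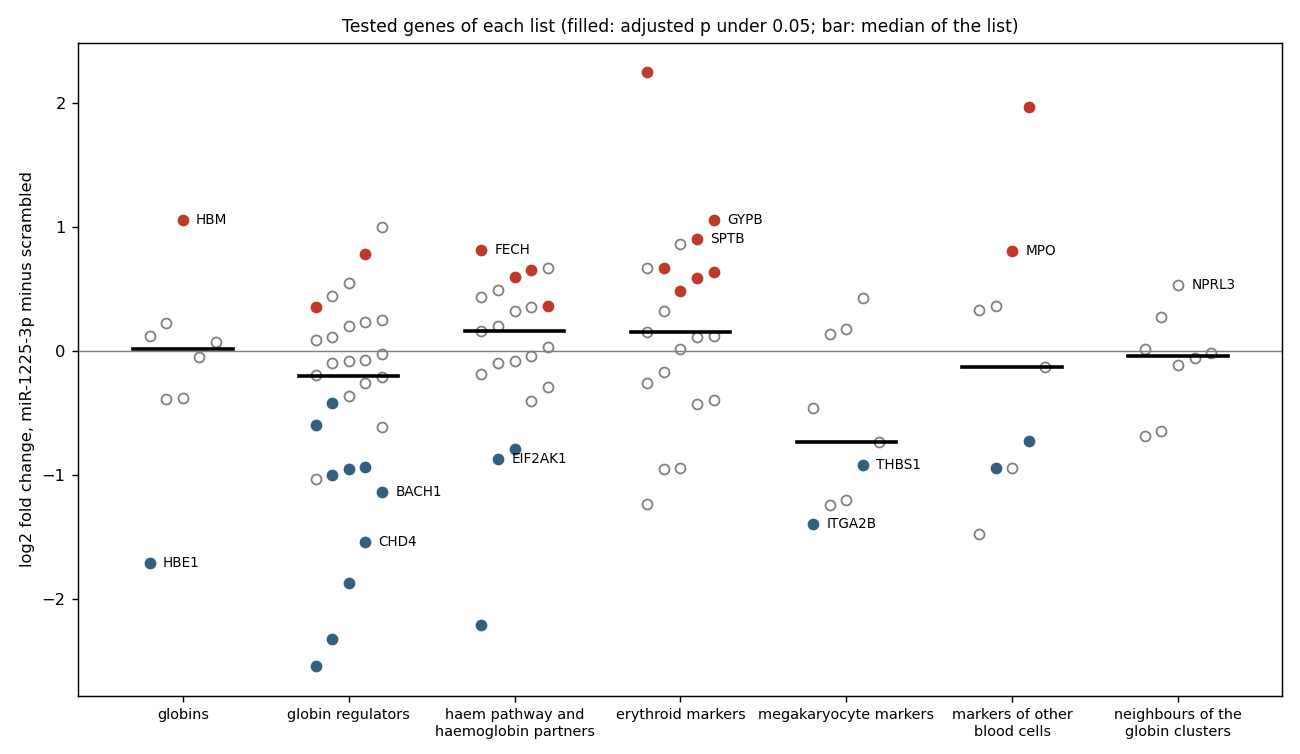
Log2 fold change (y axis, miR-1225-3p minus scrambled) of the tested genes of each list, each by its brightest probe, with called genes filled (red higher, blue lower), other genes open and the list median as a bar. The globins spread around 0 with HBE1 and HBM apart, the regulators lean below 0 (10 of the 12 called fell), and the megakaryocyte median is -0.74. Of the regulators that fell, KDM1A, NFIX and ZBTB7A entered the test through the scrambled group alone. So did ALAD of the haem list, while CD3E of the other blood cells entered through the miR-1225-3p group alone.

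Among the globins outside the clusters, CYGB, the cytoglobin of many tissues, was the one tested. Its normalized log2 signal was 9.93, 8.93, 10.19, 7.34 and 13.49 on the miR-1225-3p arrays and 13.66, 13.24, 13.14, 13.28 and 13.09 on the scrambled arrays. As for HBE1, replicates 1 to 4 lay below all scrambled arrays and replicate 5 lay among them, with a log2 fold change of -3.31 (limma adjusted p = 0.0239), or -4.19 without replicate 5. It missed the threshold when scrambled array 1 or 4 was left out, and likewise for miR-1225-3p array 2 or 3 (limma adjusted p up to 0.0620). NGB and MB, neuroglobin and myoglobin, were not well above background on any array. Of 15 genes beside the clusters 8 were tested and 0 were called by limma or by the methods' t-test with adjustment, while 1 was higher and 2 lower at an unadjusted p under 0.05 in limma. Without replicate 5 limma called 1 higher and 2 lower, and under the 75th percentile 3 higher and 0 lower. NPRL3, whose introns hold the main enhancers of the alpha-like cluster, was at 0.53 (limma adjusted p = 0.0572), or 0.65 (limma adjusted p = 0.00936) without replicate 5.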

How the data were processed

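Gene expression of MEG-01 cells was measured on 10 Agilent SurePrint G3 8x60K arrays in a single Cy3 channel, 5 per group. The authors deposited the scanner output of Agilent Feature Extraction 10.7.3.1, a version other than the one their methods give, whose processed signal is an intensity after background subtraction, and a table of normalized log2 values for 29271 probes, used here as an alternative. The flags for outlier spots and for spots well above background were taken as deposited. The median signal and the median local background are intensities too, per the file headers, and served the normexp alternative (offset 50).

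After log2 transformation, cyclic loess followed (limma 3.58.1, R 4.3.3, fast method, 3 iterations), as in the methods. Control spots were dropped, outlier spots were masked (2 among the globin spots, 35 per array), and the spots of each probe were averaged. A probe entered the test when at least 3 arrays of 1 group had it well above background (20648 probes), and 24910 of 42405 probes had an accession that matched a RefSeq symbol. The group difference was tested by limma, adjusted by Benjamini-Hochberg over all kept probes at 0.05, and by an exact permutation test over the 252 splits of the arrays for each globin probe. A gene outside the globins is its brightest kept probe.

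The members and lists were chosen with earlier results of these data known. The genes named were every globin probe, up to 4 called genes of each list with the largest change among those well above background on all 10 arrays, 15 fixed regulators and markers, and the genes with the most similar pattern. A few of these are not reported here. Alternatives covered normalization, background, source of values, filter, outlier spots, probe, test, array weights, slide and replicate blocks and single arrays. Scripts were tested on simulated data. The number of arrays limits the precision.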

Additional observations from a re-analysis of the deposited data

Results flagged for a closer look

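Gaps between 1 array and the other 4 of its group were examined for the globin probes and the other named genes, 86 groups in all. In 6 of them the gap took up more of the group's range than the 95% limit of 0.71 for 5 arrays, where chance gives about 4.3, and 2 of the 6 were on miR-1225-3p replicate 5.

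Among the globins, HBE1 was 11.20 on scrambled replicate 5, below the other scrambled arrays at 11.75 to 11.88, and this low value is the one that miR-1225-3p replicate 5 exceeded. FECH was 7.64 on miR-1225-3p replicate 5, beside 8.44 to 8.65 on the other arrays of its group, and EPB42 was 5.77 there, beside 6.58 to 6.88. MYB was 12.76 on miR-1225-3p replicate 1, beside 12.32 to 12.35. ALAS2 was 12.45 on miR-1225-3p replicate 4, beside 12.08 to 12.15. NKG7 was 11.04 on scrambled replicate 1, beside 10.17 to 10.41.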

How the results depend on the processing

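Over 26 alternatives, 278 of 308 values of globin probes kept their sign and their side of the threshold, as did 614 of 803 values of the other named genes, of which 159 lost and 24 gained the call. The count of 2 called globin probes was 5 under the 75th percentile and 0 without normalization, with the replicate block and within slide 2, and stayed at 2 when each array was left out. HBE1 and HBM missed the threshold without normalization (-1.67, 0.76), with the replicate block (-1.71, 1.05; limma adjusted p = 0.0514 and 0.0503) and within slide 2 (-1.83, 1.06). Under the 75th percentile HBB (0.58), HBD (0.61) and HBA2 A_24_P142305 (0.54) gained the call, and signs turned for HBA2 A_23_P26457 (0.30) and A_33_P3258362 (0.30), HBG1 A_23_P53137 (0.40) and A_33_P3329078 (0.35), HBZ A_33_P3421827 (0.42), NFE2 (0.13), TAL1 (0.21) and KLF1 (0.27). Array weights gave HBD the call (0.31) and turned HBZ (0.042). HBZ also turned with quantile normalization (0.050), without normalization (0.0029) and within slide 2 (0.089), HBA2 A_24_P142305 with the authors' values (-0.065) and normexp (-0.010), HBQ1 and BCL11A without normalization (-0.080, -0.24), and BCL11A and EPOR within slide 2 (-0.033, 0.080). With single arrays left out, HBA2 A_24_P142305 ranged from -0.10 to 0.13, HBZ A_33_P3421827 from -0.14 to 0.15 and HBQ1 from -0.031 to 0.19. The cause of these shifts was not tested.

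The count of 33 called genes in the other lists, of 97, was 65 with array weights, 19 without a filter on dim probes, 6 without normalization and 0 with the replicate block and within slide 2, and ranged from 11 (without miR-1225-3p replicate 2) to 56 (without replicate 5) with single arrays left out. Each of miR-1225-3p replicates 3 and 4 (12 and 20) and scrambled replicates 1 to 4 (19, 18, 17 and 17) also moved it by over 1.5 times. Over all probes, 7224 calls became 8388 under the 75th percentile, 1224 without normalization and 0 with the replicate block and within slide 2. The deviations of same-numbered arrays had correlations of -0.40 to 0.06, which show no pairing by number but cannot exclude one. The number of arrays limits the precision, and the 95% intervals of the globin probes show the size of difference that it leaves undecided.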
